A study of Mus musculus with 6 samples.

Results

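The contacts that the X-inactivation centre makes on the cas allele were compared between cells given a locked nucleic acid (LNA, a stabilised antisense oligonucleotide) against Jpx RNA and cells given a scrambled LNA. The comparison, chosen with earlier results of these data known, used the libraries of both conditions at day 7. These were 4 of the 6 libraries of the series, through 2 of its 7 maps, picked by allele and condition. All were embryonic stem cells of female mouse origin, from the strain cross CAST/EiJ x 129S1. They had been differentiated as embryoid bodies without LIF for 7 days, were nucleofected with the Jpx or the scrambled LNA, and were collected 8 hours later. Both groups were therefore differentiated, dissociated and transfected, and they differed by the LNA. Each condition had 2 libraries, which the authors had already combined into 1 map for the reads assigned to the cas allele and 1 for the mus allele; cas and mus are taken here as the CAST/EiJ and 129S1 alleles. The labels do not say which allele is silenced in these cells, and a differentiating culture holds cells at different stages. The maps measure DNA contacts, so neither the level of Jpx RNA nor a marker of the cell state could be checked in them.

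The X-inactivation centre is the stretch of the X chromosome from which one X is silenced in female cells. Xist RNA coats the chromosome to be silenced, Tsix is transcribed across Xist in the opposite direction and represses it, and Jpx, Ftx and the ubiquitin ligase gene Rlim are known as activators of Xist. A boundary between contact domains lies between the Tsix and the Xist promoters, so that Tsix shares a domain with Chic1 and Cdx4, while Xist shares one with Jpx, Ftx and Rlim. In capture Hi-C (Hi-C2), neighbouring DNA in the nucleus is cut, ligated, pulled down with RNA probes and read as pairs, and a contact is 1 such pair.

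The region ran from X 100215001 to 101265000 (mm9) in 210 bins of 5 kb. From left to right it held Nap1l2 (100379515 to 100381979), a nucleosome assembly gene, Cdx4 (100516737 to 100525931), a homeobox gene, Chic1 (100551815 to 100591431), Tsx (100609806 to 100619919), Tsix (100626856 to 100680296, plus strand), Xist (100655714 to 100678556, minus strand), Jpx (100688895 to 100701353, annotated as Enox), Ftx (100756246 to 100819093, annotated as B230206F22Rik), Zcchc13 (100825925 to 100827003), a zinc finger gene, and Rlim (101152502 to 101176623, minus strand). Locus windows reached 10 kb to each side of the promoter for Tsix, Xist, Jpx and Rlim and of the gene body for the other loci. Contacts came from DNA cut with MboI and pulled down with probes: 1067 probes of 120 bases were deposited, 97.0% of them within 100 bases of a GATC, the MboI site. No probe lay in 22 of the 210 bins, while 1 bin of the control cas map and 0 of the depleted cas map held no contact. The promoter windows held 72 GATC and 23 probes for Tsix, 66 and 44 for Xist, 60 and 34 for Jpx, and 64 and 29 for Rlim. The probe nearest to each of these promoters, extended to its nearest GATC, is shown since the promoters' contacts in both maps were captured from fragments such as these; GATC is in capitals, and the bases are those of the mm9 reference plus strand, not of the cas allele.

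Tsix probe (chrX:100627365-100627591): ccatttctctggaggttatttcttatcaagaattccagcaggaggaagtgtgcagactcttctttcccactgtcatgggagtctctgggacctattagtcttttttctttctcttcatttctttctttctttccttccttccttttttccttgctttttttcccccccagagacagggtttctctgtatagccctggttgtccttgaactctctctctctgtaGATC
Xist probe (chrX:100678469-100678592): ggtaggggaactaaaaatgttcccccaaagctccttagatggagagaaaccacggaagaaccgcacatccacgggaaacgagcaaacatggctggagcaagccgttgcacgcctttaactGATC
Jpx probe (chrX:100688558-100688765): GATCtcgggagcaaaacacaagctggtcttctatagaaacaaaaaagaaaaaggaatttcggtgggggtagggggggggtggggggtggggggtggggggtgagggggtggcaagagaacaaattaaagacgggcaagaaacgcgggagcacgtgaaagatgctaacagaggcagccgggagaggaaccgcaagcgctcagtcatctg
Rlim probe (chrX:101176811-101176968): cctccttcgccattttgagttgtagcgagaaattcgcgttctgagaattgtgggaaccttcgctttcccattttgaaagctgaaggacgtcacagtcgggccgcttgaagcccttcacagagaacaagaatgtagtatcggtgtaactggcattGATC

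The Xist probe spanned the start of Xist, inside the transcribed stretch of Tsix, with its centre 28 bases downstream of that start. The Tsix probe was centred 568 bases downstream of the Tsix start, and those of Jpx and Rlim were centred 190 and 247 bases upstream of their starts. The same probe set served both conditions.

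The control cas map held 37347 contacts between bins and the depleted cas map 31831, as recovered from the deposited values, of which 33810 and 28754 lay at separations of 10 kb or more. The cas allele took 57.4% (57.1 to 57.8) of the allelic contacts in control and 57.3% (56.9 to 57.7) in depleted cells, so the balance of the alleles differed by less than its counting error. At 5 kb resolution the maps were sparse. Of the 21736 bin pairs at 10 kb or more, 37.4% held no contact in either map, 7.24% held more than 3 in both and 1.54% held 10 or more in both. Contacts were therefore averaged over locus windows, 30 kb tiles, 100 kb insulation windows and whole sides of the region. Levels are relative to the mean of the same map at equal separation, so that 1 is the contact expected at that separation. With 1 combined map per condition, the spread between libraries is unknown and p-values are not given. The intervals cover counting error at the 95% level, to which PCR copies and differences between cultures add. A contact is said to have risen or fallen only where the interval of the log2 ratio excluded 0 and both maps held more than 3 contacts. In a bulk map, a lower level can come from fewer cells with the contact or from a rarer contact in each cell, and these cannot be told apart.

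The shares of contacts by separation did not differ between the cas maps beyond counting error. Contacts at 10 to under 50 kb made up 31.7% of those at 10 kb or more in depleted and 31.6% in control cells, a difference of 0.037 percentage points (-0.696 to 0.771). At 100 to under 250 kb the shares were 27.8% and 28.3% (difference -0.502, -1.21 to 0.207). The widest gap lay at 250 to under 500 kb, with 18% after depletion and 17.5% in control (0.558, -0.0453 to 1.16), and at 500 kb or more the shares were 4.95% and 5.06%. The interval held 0 in each of the 5 classes.

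The first question was whether contacts between the Tsix and the Xist sides of the region differed after the Jpx LNA. The dividing point was set near the centre of Xist, with 100670000 as the last base on the Tsix side. Contacts between the sides stood at 0.863 of the expected level in depleted cas (4769 contacts) and at 0.854 in control cas (5534 contacts), a log2 ratio of 0.015 (-0.0099 to 0.041). In folds the interval of this ratio ran from 0.993 to 1.03, which does not bound a change of all between-side contacts. At separations longer than the Xist side every pair lies between the sides, so their mean is the expected level in both maps by construction. At shorter separations the levels between and within the sides share the same mean. With scaling to the map total instead, the log2 ratio was 0.0089 (-0.047 to 0.065). Between-side contacts took 17.5% of the signal after depletion and 17.4% in control. Within the Xist side, with Jpx, Ftx, Zcchc13 and Rlim, contacts stood at 1.21 and 1.23 (log2 -0.019, -0.051 to 0.014). Contacts within the Tsix side stood at 0.993 and 0.990 (log2 0.0048, -0.052 to 0.062). These 3 levels rest on 4769 contacts or more in each map and had narrower intervals than the insulation bins, locus pairs and tile pairs of the same comparison. Contact number alone did not set that width: the between-side level had the fewest contacts of the 3 and the narrowest interval.

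**Figure D1:**
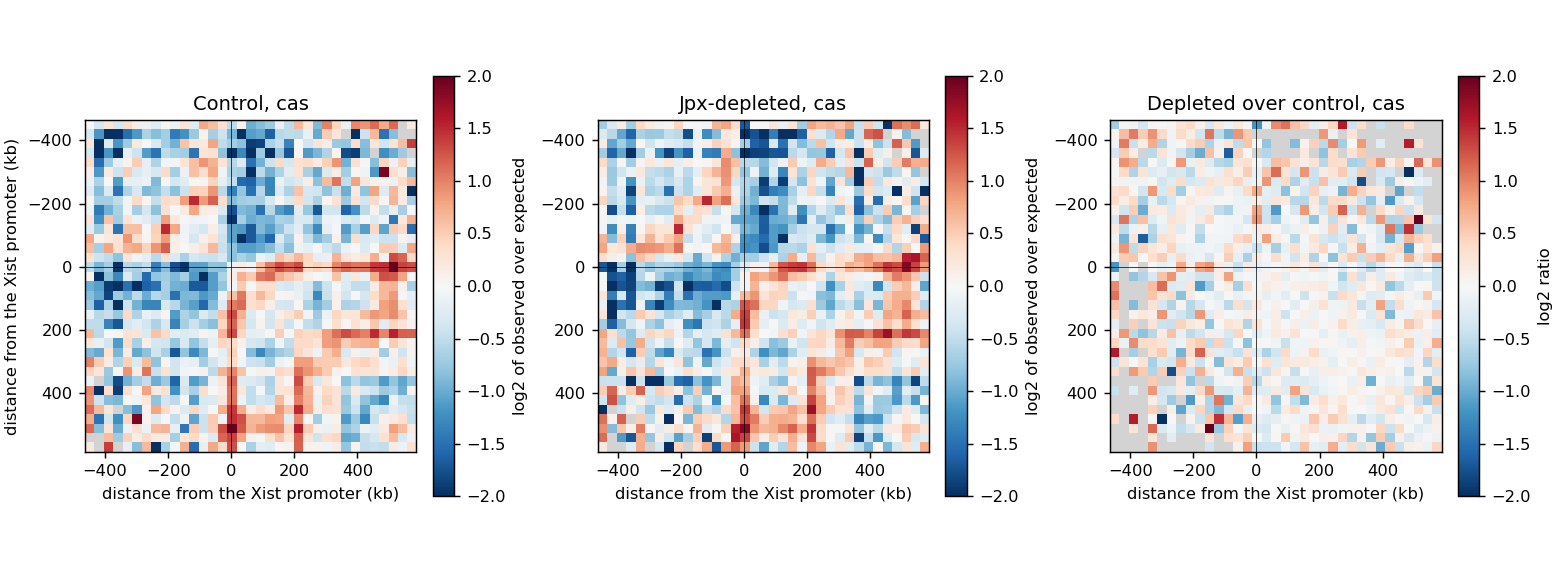
Contact maps of the cas allele in 30 kb tiles, control at left and Jpx-depleted in the middle, as the log2 of observed over expected contact (red above, blue below expectation), and the log2 ratio of depleted over control at right. Axes give the distance from the Xist promoter in kb, lines mark that promoter, and grey tiles could not be measured. Both maps show the depleted block between the sides and the stripe of high contact from Xist toward Ftx and Rlim, while the ratio map has no block and is palest near its diagonal, where contacts were most numerous.

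Boundary strength was read as an insulation score for each bin. The mean contact from the 100 kb before a bin to the 100 kb after it was divided by the median of that mean over the map and put on a log2 scale, so a lower score means fewer contacts across the bin. At the Xist promoter the score was -0.68 in both maps (594 contacts in depleted and 703 in control), with a difference of -0.0019 (-0.17 to 0.17). Jpx, the gene whose RNA was targeted, had -0.45 after depletion and -0.49 in control (0.04, -0.11 to 0.19). The Tsix promoter had -0.50 and -0.58 (0.08, -0.09 to 0.26). The lowest score of the map was -0.95 at the bin starting at 100650001 in depleted cas and -1.02 at 100640001 in control cas, both inside Tsix and to the left of the Xist promoter. Across the 170 bins with a full window the scores of the 2 maps correlated with r = 0.990, a description over neighbouring bins that share contacts, and the median size of the difference was 0.0372 against a median distance of 0.143 from the difference to the bound of its interval.

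Of the 170 bins, 4 were called, 2.35% of them, with 1 that rose (0.588%) and 3 that fell (1.76%). The 3 that fell were adjacent, from 100540001 to 100555000, over the Chic1 promoter. At the Chic1 promoter bin the score went from 0.55 in control (1079 contacts) to 0.39 in depleted cas (831 contacts), a change of -0.16 (-0.30 to -0.02). On the mus allele the same bin changed by -0.23 (-0.41 to -0.05), and the cas change minus the mus change was 0.07 (-0.16 to 0.29). The bin that rose, starting at 100605001, holds the start of Tsx, a testis-expressed gene. Its score went from -0.33 (645 contacts) to -0.11 (631 contacts), a change of 0.21 (0.05 to 0.38), beside 0.05 (-0.14 to 0.24) on mus. Here the cas change minus the mus change was 0.17 (-0.08 to 0.42), an interval that held 0. Chic1 and Tsx are singled out here after their values were seen, among 170 overlapping windows. The Chic1 call was lost with windows of 200 kb (-0.01, -0.11 to 0.09) and of 50 kb (-0.15, -0.42 to 0.12), without the bin factors (-0.09, -0.22 to 0.04), with balancing (-0.10, -0.26 to 0.06), at separations of 50 kb or more (-0.14, -0.28 to 0.0060) and at the 99% level (-0.34 to 0.02). The Tsx call was lost with windows of 200 kb (0.09, -0.03 to 0.20), at separations of 50 kb or more (0.11, -0.09 to 0.30) and at the 99% level (-0.0029 to 0.43).

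**Figure D2:**
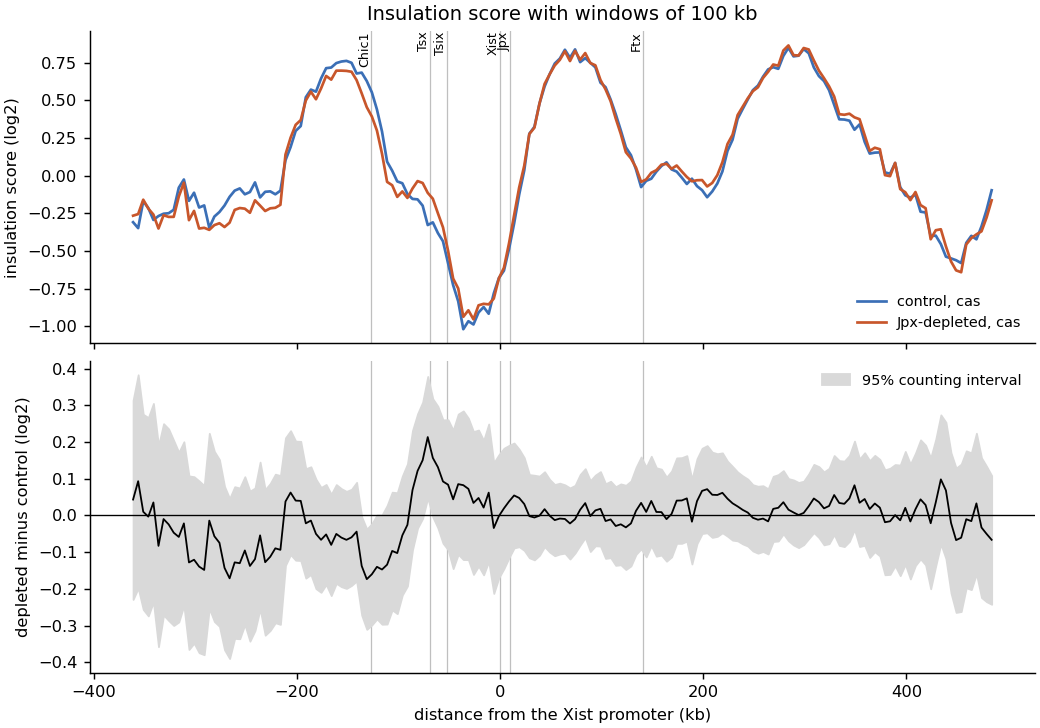
Insulation scores (log2) of the control and Jpx-depleted cas maps against the distance from the Xist promoter in kb (top), and depleted minus control with its 95% counting interval in grey (bottom). The 2 lines run together through the minimum just left of the Xist promoter, where the difference at Xist is -0.0019, and separate most over Chic1 and Tsx on the Tsix side.

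Xist and Jpx met the activator genes on their own side, Ftx and Rlim, and the neighbouring Zcchc13 at well above the expected level in both cas maps. The Xist and Jpx windows overlap from 100675001 to 100690000, so their levels and profiles share contacts and are not separate observations. Xist met the Rlim promoter window at 4.32 times the expected level in control cas (67 contacts) and at 3.04 times in depleted cas (42 contacts). The log2 ratio of -0.51 (-1.11 to 0.08) held 0, and its interval covers folds from 0.462 to 1.06. Jpx met Rlim at 3.52 (54 contacts) and 3.11 times (42 contacts), a log2 ratio of -0.18 (-0.81 to 0.44). Among all placements of windows of the same shape and separation, Xist-Rlim stood at the 98.1 percentile in both maps and Jpx-Rlim at the 98.1 percentile in control and the 99.1 percentile in depleted cas. The high rank of these contacts was thus present in both maps, while the interval of Xist-Rlim did not exclude a 2-fold fall and that of Jpx-Rlim did.

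Contacts with Ftx and Zcchc13 were better covered. Xist-Ftx had a level of 1.92 in control (505 contacts) and 2.06 in depleted cas (422 contacts), a log2 ratio of 0.10 (-0.09 to 0.30), which leaves folds from 0.939 to 1.23. Jpx-Ftx had 2.01 (539 contacts) and 2.05 (422 contacts), a log2 ratio of 0.03 (-0.16 to 0.22; folds 0.892 to 1.16). Xist-Zcchc13 had 2.96 (219 contacts) and 2.77 (168 contacts), a log2 ratio of -0.10 (-0.40 to 0.20; folds 0.756 to 1.15). Jpx-Zcchc13 was at 2.58 in both maps (194 and 154 contacts, log2 0.0011, -0.32 to 0.32; folds 0.802 to 1.25). For each of these 4 pairs the interval excluded both a 1.5-fold rise and a 1.5-fold fall. Ftx-Zcchc13, neighbours whose windows overlap, had 0.953 in control (511 contacts) and 0.833 in depleted cas (392 contacts; log2 -0.19, -0.42 to 0.03).

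Xist and Jpx, whose promoters lie side by side, met at 0.909 of the expected level in control (179 contacts) and at 0.751 in depleted cas (127 contacts). The log2 ratio was -0.28 (-0.63 to 0.07), which excludes a rise of more than 1.05-fold and leaves a fall to 0.648 of the control level. Their windows share bins, so only pairs of bins at least 10 kb apart entered this level.

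Tsix, on the other side of the boundary, met Xist and Jpx at less than the expected level in both maps. Tsix-Xist stood at 0.527 in control (55 contacts) and 0.420 in depleted cas (40 contacts), a log2 ratio of -0.33 (-0.98 to 0.31). Tsix-Jpx stood at 0.343 (28 contacts) and 0.323 (24 contacts), a log2 ratio of -0.09 (-0.95 to 0.77). The folds left by these intervals, 0.508 to 1.24 and 0.517 to 1.71, exclude neither a 1.5-fold fall for either pair nor, for Tsix-Jpx, a 1.5-fold rise. Tsix-Ftx had 0.600 (91 contacts) and 0.508 (65 contacts; log2 -0.24, -0.74 to 0.25), and Tsix-Zcchc13 had 0.800 and 0.901 with 36 contacts in each map (0.17, -0.55 to 0.90). Tsix-Rlim rested on 16 contacts in control and 10 in depleted cas (-0.44, -1.76 to 0.81). Within its own domain Tsix met Chic1 at 1.05 (206 contacts) and 1.10 (197 contacts; log2 0.06, -0.26 to 0.37), and Cdx4 at 1.02 (66 contacts) and 1.05 (57 contacts; 0.04, -0.51 to 0.60).

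Chic1 and Cdx4 lie on the Tsix side, and their contacts with Xist and Jpx cross the boundary. Chic1-Jpx came nearest to a call among the 44 pairs with more than 3 contacts in both maps. Its level was 0.294 in control (41 contacts) and 0.456 in depleted cas (48 contacts), a log2 ratio of 0.63 (-0.01 to 1.29). The control value lay at the 0 percentile of 179 placements of the same shape and separation, and the depleted value at the 5.03 percentile, so this contact was among the weakest in both maps. The pair was called with balancing to equal bin totals (0.76, 0.08 to 1.44), with the median at equal separation (0.66, 0.01 to 1.32) and with the delta-method interval (0.02 to 1.25). It was not called in the other settings tried, and the ratio was smaller with flanks of 5 kb (0.25, -0.67 to 1.16), with flanks of 20 kb (0.22, -0.14 to 0.58) and without the bin factors (0.51, -0.13 to 1.15). On mus the same pair had a log2 ratio of 0.52 (-0.13 to 1.17), and cas minus mus was 0.12 (-0.80 to 1.04). Chic1-Xist had 0.426 (70 contacts) and 0.515 (66 contacts; 0.27, -0.25 to 0.80). Cdx4-Xist had 0.294 (21 contacts) and 0.364 (22 contacts; 0.31, -0.65 to 1.27), and Cdx4-Jpx 0.300 and 0.417 with 20 contacts each (0.47, -0.51 to 1.46). All 4 of these ratios lay above 0, and none of the intervals excluded 0 in the windows used here. The ratios are not separate observations, since the Xist and Jpx windows share bins and so count some of the same contacts.

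Of the 45 pairs of the 10 loci, 44 held more than 3 contacts in both maps and 0 were called (0%), in either direction. The median log2 ratio of the 44 was 0.0083, and 24 of them lay above 0, beside a median of 0.0057 and 291 above 0 among the 567 measurable 30 kb tile pairs. The remaining pair, Nap1l2-Rlim at the far ends of the region, held 2 contacts in depleted and 8 in control cas. Its log2 ratio was -3.17 (-6.96 to -0.53), an interval that excluded 0, and it was not called because of its few contacts. The count of called pairs depended on the window: with flanks of 20 kb in place of 10 kb it was 6 of 45, each of which rose. These were Nap1l2-Tsx, Nap1l2-Ftx, Nap1l2-Zcchc13 (0.91, 0.17 to 1.66), Cdx4-Xist (0.58, 0.04 to 1.13), Cdx4-Rlim (1.21, 0.29 to 2.19; 31 contacts in depleted and 17 in control) and Tsx-Tsix (0.22, 0.01 to 0.43; 466 and 480 contacts). Their log2 ratios with the 10 kb flanks were 0.16, 0.36, 0.73, 0.31, 0.76 and 0.00075 in that order, and each of those intervals held 0. On mus, 0 of 45 pairs were called (0%) with the 10 kb flanks.

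**Figure D3:**
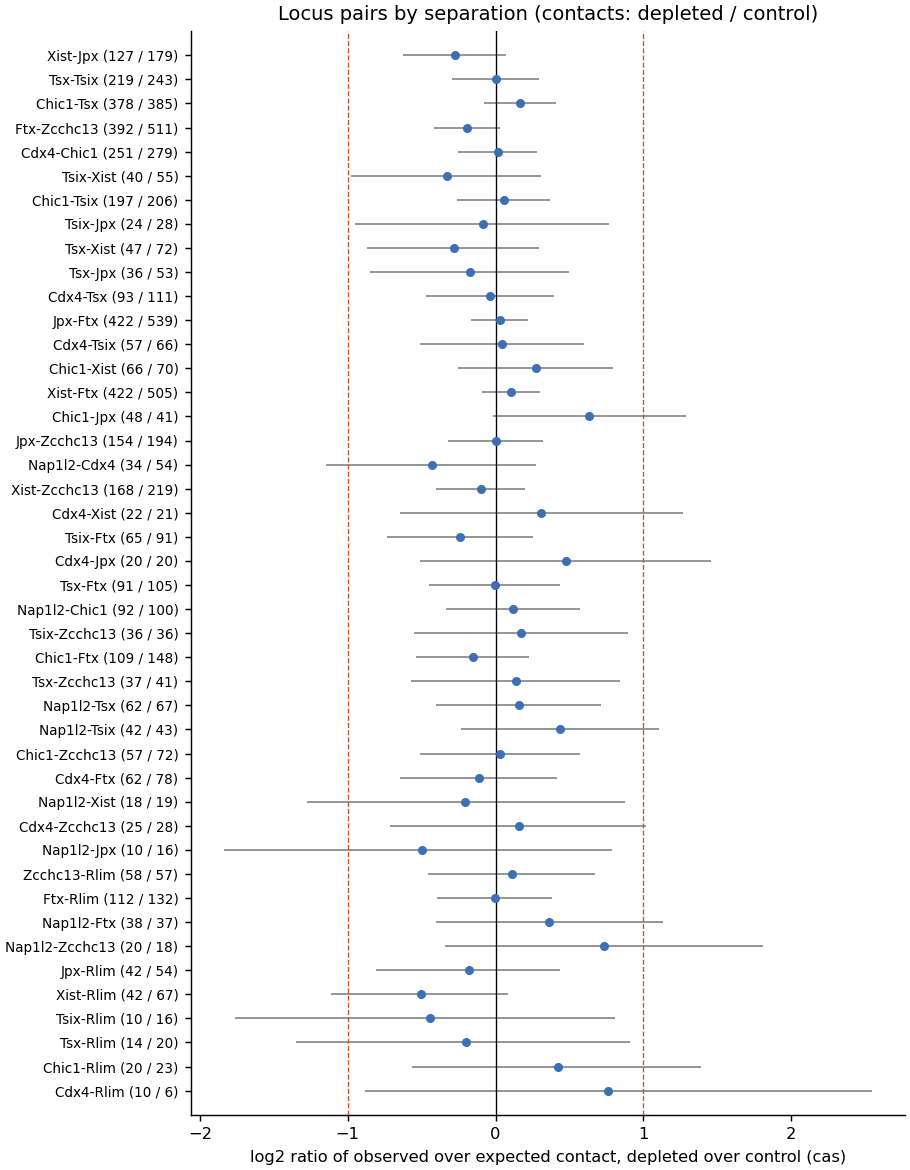
Log2 ratio of observed over expected contact, depleted over control on cas, for the locus pairs in order of separation, with 95% counting intervals as bars, the contacts of both maps beside each pair and dashed lines at a 2-fold change. Every interval with more than 3 contacts in both maps crosses 0, and the bars widen from Xist-Ftx, with 422 and 505 contacts, to Tsix-Rlim, with 10 and 16.

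The profiles of the Xist, Jpx and Tsix promoter windows against all 35 tiles of 30 kb gave the same picture along the region. The Xist profile went from 0.895 in depleted and 0.913 in control at the tile starting at 100725001 to 2.87 and 2.42 at 100845001, beyond Zcchc13, and peaked at 3.69 and 4.48 at 101175001, over the Rlim promoter. To the left of Tsix the Xist profile stayed under 0.9 in every tile of both maps. The Jpx profile followed the same course, with 2.41 and 2.03 at the Ftx tile starting at 100785001 and 2.59 and 3.84 at the Rlim tile starting at 101175001. At that Rlim tile, the Jpx window had 44 contacts in depleted and 72 in control cas (log2 -0.57, -1.15 to 0.0048). The Tsix profile peaked on its own side, at 2.02 in depleted and 2.29 in control at the tile starting at 100455001. Of the tiles, 0 were called for Xist, 0 for Tsix and 1 for Jpx, where contact with the last tile of the region, starting at 101235001, fell from 2.42 (22 contacts) to 0.987 (10 contacts; log2 -1.29, -2.63 to -0.09). The same tile had a log2 ratio of -0.53 (-1.54 to 0.44) with Xist. A 2-fold rise and a 2-fold fall were both excluded for 21 tiles of the Xist profile, 17 of Jpx and 13 of Tsix.

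**Figure D4:**
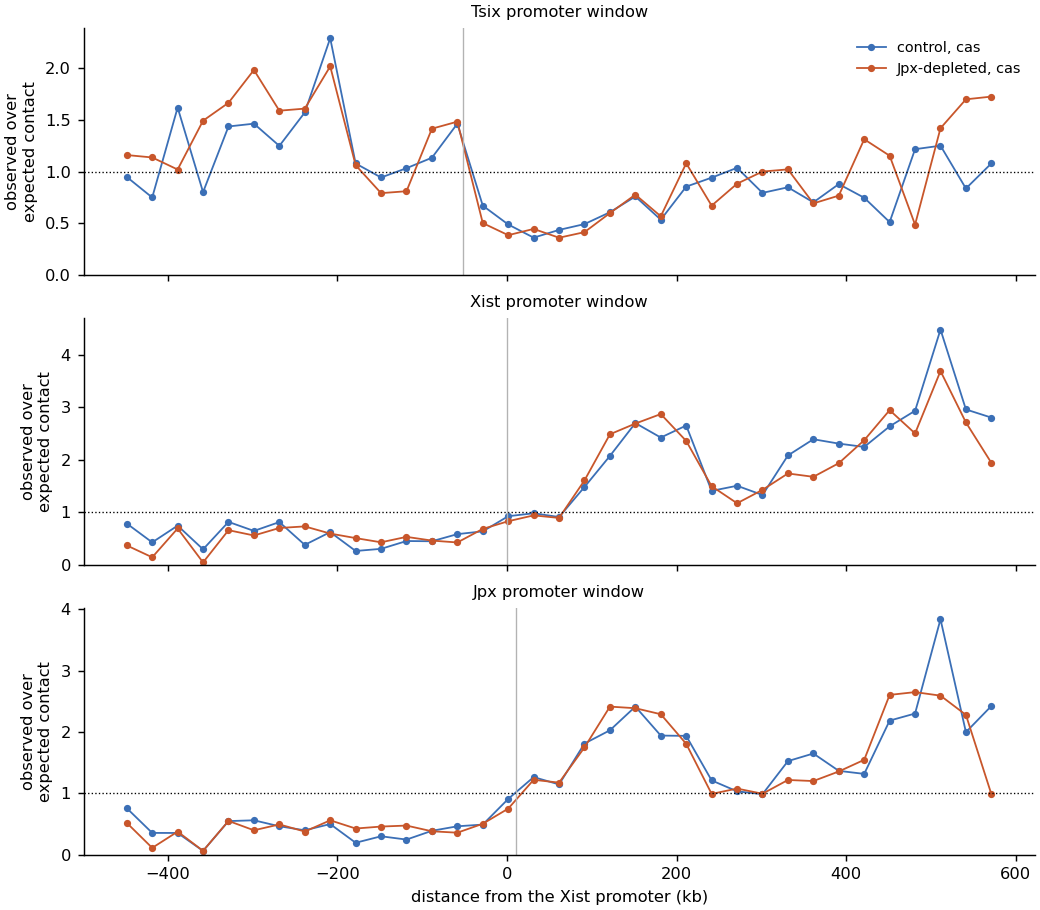
Observed over expected contact of the Xist, Jpx and Tsix promoter windows with each 30 kb tile in control and Jpx-depleted cas maps, against the distance of the tile from the Xist promoter in kb, with a grey line at each window's own promoter and a dotted line at the expected level. In both maps Xist and Jpx are high over Ftx and Rlim and low to the left of Tsix, and Tsix is highest on its own side.

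Over the whole region, 567 of the 630 pairs of 30 kb tiles held more than 3 contacts in both cas maps, and 17 of them were called (3%), 6 that rose (1.06%) and 11 that fell (1.94%). An interval of this level is set to leave out the true value in at most 5% of cases when counting is the only error. The exact binomial method, with the larger variance taken for tile pairs, makes it wider, so counting error alone may call fewer than 5%. On mus, 21 of 577 were called (3.64%). The log2 ratios of the tile pairs with 10 or more contacts in both maps had a root mean square of 0.353, against a counting error of 0.382, a ratio of variances of 0.856 over 462 pairs. Here and below, the counting error also takes the larger variance, which lowers the ratio, so a low ratio does not show that further spread is absent. That ratio was 1.2 under 50 kb and 1.13 at 50 to under 100 kb. It was 0.881 at 100 to under 250 kb, 0.784 at 250 to under 500 kb and 0.739 at 500 kb or more. Over all separations the ratio was 0.887 for depletion on mus, and 1.96 where control mus was set against control cas.

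The 17 called tile pairs lay on both sides and between them. By the split, 4 of 119 measurable pairs rose within the Tsix side, 1 of 210 within the Xist side and 1 of 238 between the sides, while 3, 5 and 3 fell, with the tile that holds the split counted on the Xist side. By separation, 6 of the 65 tile pairs at 50 to under 100 kb were called, 3 in each direction, and 2 of the 145 at 100 to under 250 kb. The largest rise was between the Cdx4 tile starting at 100515001 and the Rlim tile at 101175001, from 0.373 (4 contacts) to 1.62 (15 contacts), a log2 ratio of 2.12 (0.40 to 4.29). The next were the tiles at 100335001 and 100425001, from 30 to 46 contacts (0.87, 0.13 to 1.62), and the Ftx tile at 100785001 with that at 101055001, from 29 to 40 contacts (0.81, 0.04 to 1.60). The largest fall was between the Nap1l2 tile at 100365001 and the Rlim tile at 101145001, from 10 contacts to 4 (log2 -2.39, -4.81 to -0.04). It was followed by the tiles at 100395001 and 100995001, from 27 contacts to 8 (-1.77, -3.14 to -0.57), and at 101055001 and 101235001, from 35 to 20 (-0.99, -1.91 to -0.11). These 6 were picked for their size, which favours pairs with few contacts. Of the 6 rises and 11 falls, 0 were called the same way on mus, and the pair with the largest rise had a log2 ratio of -0.63 (-1.86 to 0.51) there.

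Chic1 tiles entered several of the called pairs, at depths that differed widely. The Chic1 tile starting at 100575001 rose in contact with the Tsx and Tsix tile at 100605001, from 235 to 266 contacts (log2 0.40, 0.11 to 0.69), and with the tile at 100635001 inside Tsix, from 72 to 88 contacts (0.50, 0.02 to 0.98). The tile at 100485001, to the left of Cdx4, fell in contact with both Chic1 tiles, from 122 to 75 contacts with the one at 100545001 (-0.49, -0.96 to -0.03) and from 68 to 44 with the one at 100575001 (-0.61, -1.23 to -0.02). On mus, the first of these pairs went the other way (-0.37, -0.71 to -0.03), the second had a ratio of 0.07 (-0.53 to 0.68), and the last 2 had ratios of -0.24 (-0.89 to 0.40) and -0.55 (-1.33 to 0.21). The tiles are those around the insulation bins called above, hold the same contacts, and are described here after their values were seen.

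The depth set the size of change that could be excluded. For locus pairs, a 2-fold rise and a 2-fold fall were both excluded for 29 of 45, a 1.5-fold change in both directions for 15, and a 1.2-fold change for 1. A 4-fold change in both directions was excluded for 43 of 45. For tile pairs, the corresponding counts were 244 of 630 (38.7%) for 2-fold, 95 for 1.5-fold, 5 for 1.2-fold and 468 (74.3%) for 4-fold. The limit followed the separation: the median tile pair under 50 kb held 93 contacts in depleted and 116 in control cas, and its interval reached 1.36-fold to each side. At 100 to under 250 kb it held 37 and 47 contacts and reached 1.60-fold, and at 500 kb or more it held 7 and 7 contacts and reached 3.57-fold. At 500 kb or more, 4 of 171 tile pairs excluded a 2-fold change in both directions, and 53 held 3 contacts or fewer in a map. The contacts of Xist and Jpx with Rlim lie near this range, and their intervals leave a fall to 0.462 and 0.571 of the control level. For insulation the limit was closer, with a 1.5-fold rise and fall excluded at all 170 bins and a 1.2-fold change in both directions at 126. For the levels between and within the sides, a 1.2-fold change of the ratio was excluded in both directions in all 3 cases. These levels are tied to a mean that the same contacts make up, so this does not limit a change of the contacts themselves. What the study's paper states of this allele is not used here, so no claim of it is set against these limits.

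**Figure D5:**
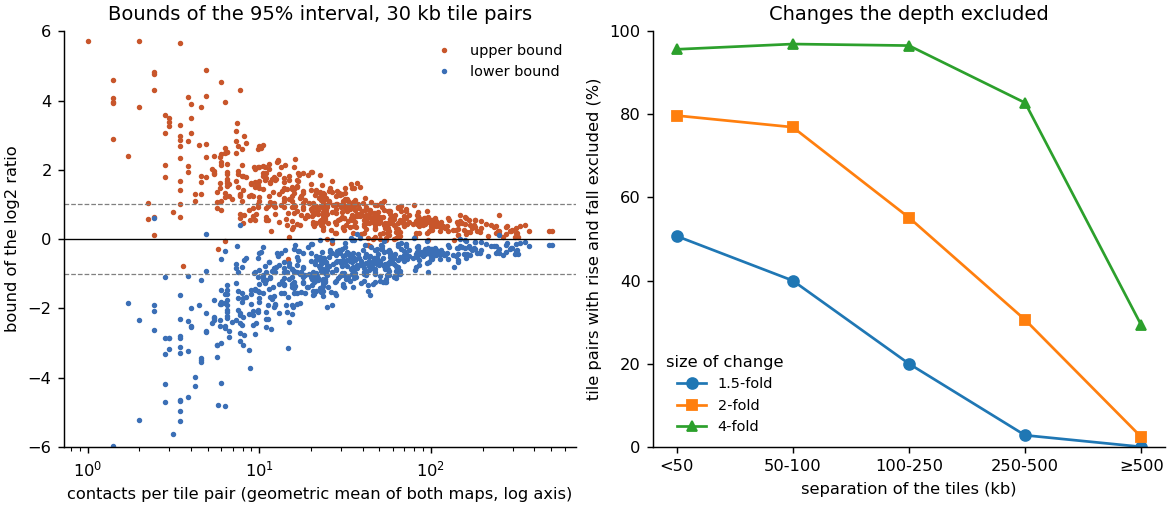
Upper and lower bounds of the 95% counting interval of the log2 ratio (depleted over control, cas) for each 30 kb tile pair, against its contacts on a log axis (left; dashed lines mark a 2-fold change), and the percentage of tile pairs for which a rise and a fall of 1.5-fold, 2-fold or 4-fold were both excluded, by separation in kb (right). The bounds close in as contacts increase, and the share for a 2-fold change goes from 79.7% under 50 kb to 2.34% at 500 kb or more.

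The difference between the alleles is given beside these values. The comparisons share maps, and so their errors are not independent. How reads were assigned to the alleles is not described in the sources used here, and its part in these differences was not tested. As above, the level between the sides is tied to a mean that the same contacts make up. Contacts between the sides on control mus stood above control cas by a log2 ratio of 0.17 (0.15 to 0.20), and depleted cas stood below control mus by -0.16 (-0.18 to -0.13). Of the 45 locus pairs, 14 differed between control mus and control cas (31.1%), 10 higher on mus (22.2%) and 4 lower (8.89%). Depleted cas differed from control mus in 16 of 44 pairs (36.4%). Xist-Zcchc13 stood at 2.96 in control cas, 2.77 in depleted cas and 4.75 in control mus, and Xist-Ftx at 1.92, 2.06 and 2.90. Jpx-Rlim stood at 3.52, 3.11 and 1.32, and depleted cas exceeded control mus by a log2 ratio of 1.23 (0.36 to 2.18). Xist-Rlim stood at 4.32, 3.04 and 2.12, and here depleted cas differed neither from control cas nor from control mus (0.52, -0.23 to 1.30) beyond counting error. Among the 30 kb tile pairs, 85 of 578 differed between control mus and control cas (14.7%), 85 of 562 between depleted cas and control mus (15.1%), and the 17 of 567 above between the cas maps.

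The change with depletion on cas was also set against that on mus. For contacts between the sides, the difference of the log2 ratios, cas minus mus, was -0.010 (-0.047 to 0.026). At the insulation bins of Xist, Jpx and Tsix it was -0.04 (-0.28 to 0.21), -0.10 (-0.32 to 0.11) and -0.03 (-0.30 to 0.24). Of the locus pairs with more than 3 contacts in each map, 1 had a difference whose interval excluded 0. That pair was Chic1-Tsx, at 1.02 (385 contacts) in control and 1.14 (378 contacts) in depleted cas, with a log2 ratio of 0.16 (-0.08 to 0.41) on cas and -0.21 (-0.49 to 0.07) on mus.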

How the data were processed

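Contact maps of day 7 libraries of both conditions were used. The deposited values are signal for each pair of 5 kb bins of mm9, per the file headers, with both libraries of a condition combined per the labels. Probe positions came from the deposited probe list and their bases from the mm9 genome. The submitters' processing notes name Juicer 1.5.3, HOMER 4.8, Novoalign 3.00.02 and cutadapt 1.2.1. Not given in the sources used here are the role of each tool and the filters, duplicate removal, allele assignment and correction.

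The signal was written as a whole count over a factor for each bin (tolerance 0.01), which gave whole counts for 99.99% to 100% of values. The factors followed the square root of bin totals (slope 0.49 on logarithms), so coverage was evened only in part. Total signal was alike in both cas maps (71428 and 71306), and the precision is set by the recovered contacts. Signal at 10 kb or more was divided by the map's mean at equal separation. The 227 bin pairs at separations where a cas map held no contact, all at 935 kb or more, were left out, and 21509 were used. Intervals treat the ratio of weighted counts as a ratio of Poisson counts of the same relative error (exact binomial, 95%), with the error of the expected values; for loci, tiles and profiles the larger of the variances with and without that error was taken. With the median at equal separation, the intervals hold the expected values fixed and leave out their error. Intervals of cas minus mus added both errors in quadrature. The scripts were tested on simulated data.

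Genes came from the GENCODE annotation of mm9. The loci were the 10 listed, with the 45 pairs. Pairs described were those of Xist, Jpx and Tsix with each other and with Rlim, Ftx, Zcchc13, Chic1 and Cdx4, any pair called, and the 3 called tile pairs with the largest ratio per direction. Comparison and lists were chosen with earlier results of these data known. Calculations used Python 3.11.15, numpy 2.4.6, scipy 1.17.1 and matplotlib 3.10.9. The alternatives were the median in place of the mean at equal separation, scaling to the map total, leaving out 4 bins of low total, no bin factors, balancing to equal bin totals, separations of 50 kb or more, the 188 bins with a probe, smaller and larger windows, other splits, a delta-method interval and a 99% interval. An interval without the larger variance was added after seeing the data.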

Additional observations from a re-analysis of the deposited data

Results flagged for a closer look

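The change of the Chic1-Tsx contact with depletion differed between the alleles, with a cas minus mus log2 ratio of 0.38 (0.0053 to 0.75), on 378 and 385 contacts on cas. The difference was 1 such among 44 pairs, neither allele's own ratio was called, and its interval held 0 with scaling to the map total (0.27, -0.05 to 0.60), with separations of 50 kb or more (0.29, -0.50 to 1.09), with flanks of 20 kb (0.16, -0.12 to 0.44) and at the 99% level (-0.11 to 0.86). In the other settings run for this pair the interval excluded 0, among them balancing (0.49, 0.06 to 0.93) and flanks of 5 kb (0.47, 0.05 to 0.90). The tile pair of Chic1 with Tsx and Tsix described above holds some of the same contacts. Its intervals excluded 0 on both alleles, in opposite directions, and it was described after its values were seen. The windows of Chic1 and Tsx share bins.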

How the results depend on the processing

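No paired analysis was possible because each map combines both libraries of its condition, and for the same reason no library could be left out. The ratio for contacts between the sides, the insulation differences at Xist, Jpx and Tsix and the spread of tile-pair ratios over counting variance kept their side of the threshold or their size in each alternative that could be run. The median at equal separation in place of the mean reached separations up to 325 kb and 337 tile pairs. With it, the ratio within the Xist side changed sign to 0.066 (0.027 to 0.11), and cas minus mus between the sides was -0.39 (-0.61 to -0.17). That setting also moved the median tile pair to 0.06. Its intervals hold the expected values fixed, and whether they would exclude 0 with the error of those values added was not tested. The count of called locus pairs went from 0 to 1 with the median, to 1 with no bin factors, to 2 with balancing to equal bin totals, to 6 with flanks of 20 kb and to 1 with the delta-method interval; the cause was not tested. Tile pairs called went from 3.00% to 4.76% with balancing and to 0.353% at the 99% level. A 2-fold change was excluded both ways for 19 locus pairs with flanks of 5 kb, for 8.21% of tile pairs of 15 kb and for 71.9% of 50 kb, against 29 and 38.7%, as larger windows hold more contacts. Depth limits contacts at 500 kb or more most. Neither the error of the bin factors nor differences between libraries enter the intervals.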
